A study of Mus musculus with 8 samples.

Results

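The class III receptor tyrosine kinases Kit, Flt3, Csf1r, Pdgfra and Pdgfrb, and the ligands Kitl and Flt3l, were followed by name through RNA-seq libraries of sorted mouse bone marrow cells. All 7 genes were found among 21991 genes with exon counts. Each receptor carries immunoglobulin-like domains outside the cell and a kinase domain inside it that is split by an insert, and a dimeric ligand brings receptor chains together so that the kinases phosphorylate each other. Docked adaptors then pass the signal to the RAS-ERK, PI3K-AKT and STAT pathways, while phosphatases, SOCS proteins and ubiquitin ligases end it. In bone marrow, Kit is the receptor for stem cell factor (Kitl) and is needed to maintain stem cells, Flt3 is used to mark early multipotent progenitors, Csf1r drives the macrophage lineage, and the PDGF receptors are best known from stromal cells and pericytes.

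The study compared 2 sorted fractions of C57BL/6 bone marrow, with 4 libraries each from mice of 8 to 10 weeks. The HSC fraction (hematopoietic stem cells) was labelled as lineage-negative cells positive for c-Kit, Sca1 and CD150 and negative for CD34. The HPC fraction (progenitor cells) carried the same labels except that it was positive for CD34. Both groups therefore share the gate for c-Kit, the protein of Kit, and differ in the gate for CD34, while the labelled gate does not use Flt3. A count of 5000 sorted cells is stated for all libraries in a text that names only HSC, and no treatment, transgene or pooling of animals is named.

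The libraries held 16291733 to 20564901 exon reads. Between 14008 and 15041 genes had an exon read, with the HSC libraries all above the HPC libraries. The transcript of the protein that parted the fractions, Cd34, was at 120 ± 15.4 CPM (exon reads scaled to a common library size by TMM, mean ± SD, n = 4) in HSC and 1276 ± 55.9 in HPC. Slamf1, which encodes CD150, was at 37.6 ± 6.02 CPM in HSC and 3.14 ± 0.736 in HPC, although both fractions were labelled positive for that protein. Ly6a, which encodes Sca1, another label the fractions share, was at 131 ± 16.0 CPM in HSC and 72.1 ± 8.02 in HPC. The labels do not tell whether the libraries of a fraction stem from separate mice. The p-values below therefore rest on the spread between libraries, part or all of which may be technical.

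Kit and Flt3 are the receptors on which the results turn, and both lie on chromosome 5. The 250 bases before each gene's start are shown because the level of Flt3 parted the fractions and that of Kit did not, on build GRCm38.p6 (mm10) from RefSeq, written along the strand of the gene, with capitals marking GGAA, the core letters bound by ETS factors such as Spi1, or its reverse complement. The windows are chr5:75574737-75574986 on the plus strand for Kit and chr5:147400490-147400739 on the minus strand for Flt3.
Kit: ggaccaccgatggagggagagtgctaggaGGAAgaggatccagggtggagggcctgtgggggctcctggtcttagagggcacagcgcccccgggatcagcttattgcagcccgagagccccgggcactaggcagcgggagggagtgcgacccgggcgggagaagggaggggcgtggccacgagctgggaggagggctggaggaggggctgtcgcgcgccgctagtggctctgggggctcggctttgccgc
Flt3: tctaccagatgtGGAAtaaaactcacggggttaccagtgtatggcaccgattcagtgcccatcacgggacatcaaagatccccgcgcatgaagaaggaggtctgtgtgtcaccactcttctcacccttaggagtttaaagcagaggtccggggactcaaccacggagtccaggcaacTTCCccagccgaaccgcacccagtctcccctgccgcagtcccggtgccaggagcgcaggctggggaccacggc
The Kit window held 17 CpG dinucleotides at a GC content of 70.8%, and the Flt3 window 13 at 59.2%. The median over 27025 such promoter windows was 6 CpG dinucleotides and a GC content of 52.0%. GGAA was matched at 1 place before Kit (base -221 from the start) and at 2 before Flt3 (bases -238 and -73). On either strand 93.4% of all promoters hold it. The letters GATA, held by 54.1% of promoters, and TGTGGT (the RUNX letters), held by 14.2%, matched neither window. AACNG (MYB) matched at base -62 and CANNTG (the E-box) at base -245 before Flt3, and neither matched before Kit, against 74.1% and 66.04% of all promoters. These matches describe letters in the windows and nothing more.

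The receptors differed in what separated the fractions. Kit was the most abundant receptor of the family in every library and was not called as different. Flt3, Csf1r and Pdgfrb were all lower in HSC, by 35.5-fold, 6.32-fold and 13.6-fold as ratios of mean CPM. Pdgfra was near 0 in all libraries. Of the ligands, Flt3l was 2.26-fold higher in HSC and Kitl was near 0. A gene was called at an adjusted p below 0.05 in edgeR's quasi-likelihood test over 12751 genes with enough reads. Of the 7 members 5 were tested and 4 called, 1 higher and 3 lower in HSC, where 37.1% of all tested genes were called, 19.6% as higher and 17.6% as lower. The libraries of the fractions did not overlap in CPM for those 4 members, as for 36.7% of all tested genes. These shares over all tested genes stand beside every such count below. In bulk RNA, fewer cells with a transcript and less of it in each cell cannot be told apart.

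**Figure D1:**
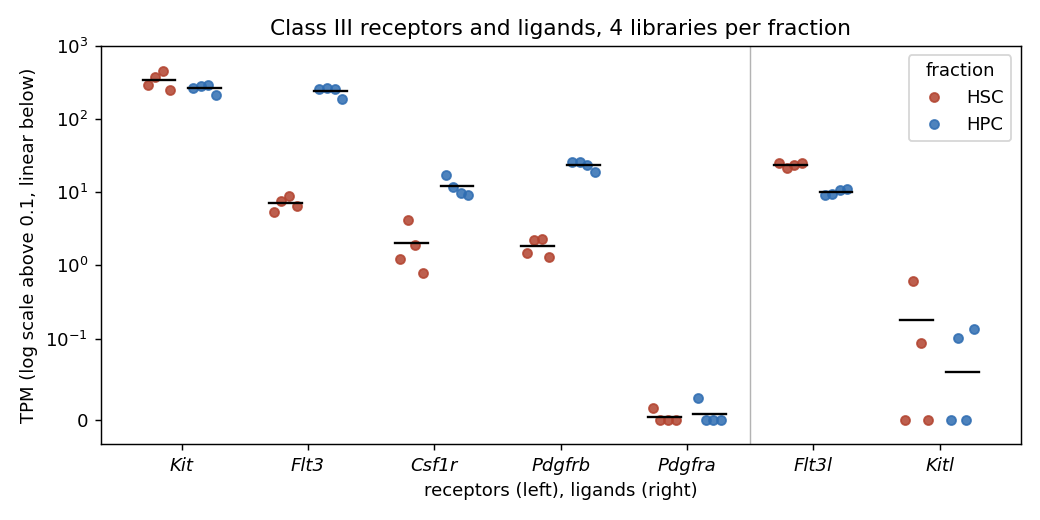
TPM (a level per transcript length) of the 5 receptors and 2 ligands, 1 point per library and a line at the mean of 4, on an axis that is logarithmic above 0.1 and linear below. Kit overlaps between the fractions, Flt3, Csf1r and Pdgfrb are lower in every HSC library, Flt3l is higher in every HSC library, and Pdgfra and Kitl lie at or near 0.

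Kit stood at 288, 373, 457 and 250.1 TPM in HSC libraries 1 to 4. In HPC libraries 1 to 4 it stood at 269.6, 283, 290.3 and 210.1 TPM. The ranges overlap, since HSC library 4 lies below HPC libraries 1 to 3, and HSC libraries 2 and 3 are the highest of all. Kit had 11796 to 22956 exon reads per library. On the CPM scale the means were 924 ± 185 in HSC and 746 ± 66.4 in HPC (SD, n = 4). The fitted log2 change, HSC over HPC, was 0.31 ± 0.13 (SE) with an adjusted p of 0.0804 in edgeR's test. The call turned with the setting: the adjusted p was 0.0239 without HSC library 4 (log2 change 0.39), 0.232 without HSC library 3 (0.19), and 0.0281 with upper quartile scaling (0.38). A missed threshold does not show equal levels.

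Flt3, the receptor for Flt3 ligand, stood at 5.45, 7.66, 8.88 and 6.52 TPM in HSC libraries 1 to 4. The HPC libraries stood at 258, 268, 254 and 189.9 TPM. The highest HSC library was thus far below the lowest HPC library. Exon reads numbered 276 to 482 per library in HSC and 11524 to 16316 in HPC. Mean levels were 20.9 ± 3.27 and 744 ± 75.3 CPM (SD, n = 4), a log2 change of -5.15 ± 0.14 (SE) with an adjusted p of 1.58e-11 in edgeR's test. The HSC value was above 0 in every library, so the transcript was low there, not undetected.

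LOC108169082, a gene on the opposite strand at chr5:147399672-147401920, overlaps the start of Flt3 by 818 bases. It had 0 to 17 gene reads per library in HSC and 127 to 205 in HPC, few beside the reads of Flt3. The sources used here do not say whether counting used strand, so reads of the shared bases cannot be assigned to one gene.

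Kit and Flt3 were also set against each other within each library, where scaling between libraries plays no part. For every 100 TPM of Kit there were 1.89, 2.05, 1.94 and 2.61 TPM of Flt3 in HSC libraries 1 to 4. In HPC libraries 1 to 4 there were 95.7, 94.8, 87.6 and 90.4. The log2 ratio of Flt3 to Kit was -5.57 ± 0.21 in HSC and -0.12 ± 0.06 in HPC (SD, n = 4), which differ with p = 0.0286 in a two-sided exact permutation test, the smallest p that 4 libraries against 4 allow. Nearly all receptor transcripts of the family in HSC were therefore Kit, and in HPC they were mostly Kit and Flt3 at overlapping levels.

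Kit made up 96.4% to 97.2% of the summed TPM of the 5 receptors in the HSC libraries and 47.2% to 50.2% in the HPC libraries. The means were 96.9% ± 0.427 and 48.7% ± 1.29 (SD, n = 4), with p = 0.0286 in the same exact permutation test. Because Kit and Flt3 make up most of the sum, this share largely restates their ratio above and is not an independent result. Flt3 made up 1.84% to 2.52% in HSC and 44.0% to 45.5% in HPC. Pdgfrb made up at most 0.576% in any HSC library and at least 4.10% in every HPC library. The sum itself spanned 259 to 470 TPM in HSC and 428 to 588 in HPC, and these ranges overlap.

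**Figure D2:**
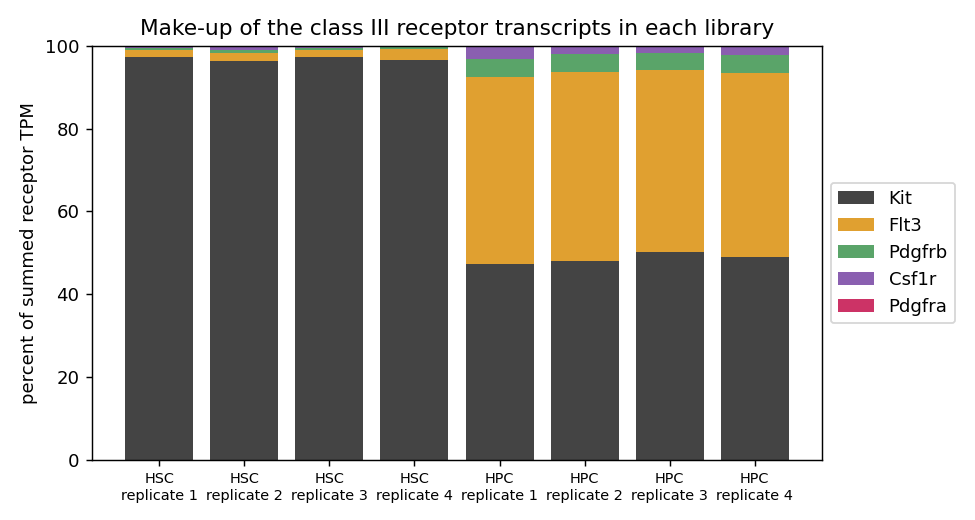
Percent of the summed TPM of the 5 class III receptors taken by each receptor, 1 stacked bar per library. Kit fills 96.4% to 97.2% of the HSC bars and 47.2% to 50.2% of the HPC bars, where Flt3 takes 44.0% to 45.5%.

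Csf1r, the receptor for Csf1 and interleukin 34 on cells of the macrophage lineage, stood at 1.23, 4.16, 1.90 and 0.782 TPM in HSC libraries 1 to 4. The HPC libraries stood at 17.4, 11.9, 9.68 and 9.18 TPM. Every HSC library lay below every HPC library, with HSC library 2 the highest of its group and HPC library 1 the highest of all. Exon reads were 43, 157, 71 and 33 in HSC and 682, 500, 353 and 383 in HPC. The means of 4.02 ± 2.89 and 25.4 ± 7.41 CPM (SD, n = 4) gave a log2 change of -2.66 ± 0.38 (SE) and an adjusted p of 6.25e-05 in edgeR's test. Without HSC library 2 the log2 change was -3.28, with an adjusted p of 1.76e-06.

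Markers of monocytes and macrophages are given beside Csf1r. The summed level of 13 such markers was 57.8, 156, 84.9 and 56.3 CPM in HSC libraries 1 to 4 and 274, 158, 183 and 212 CPM in HPC libraries 1 to 4, so HSC library 2 and HPC library 1 lead their groups here too. In HPC libraries 2 to 4 Csf1r stood at 24.8, 19.7 and 21.2 CPM, so its order there was not that of the sum. F13a1 alone made up 84.7 CPM of the sum in HSC library 2 and 131 CPM in HPC library 1, and without it the sums were 50.4 to 71.8 CPM in HSC and 99.96 to 143 in HPC. Of the 12 markers tested, 3 were lower in HSC, 9 were not called and 0 were higher, with a median log2 change of -0.47, and without HSC library 2 the number lower was 5. Cathepsin S (Ctss) fell from 49.3 ± 3.79 CPM in HPC to 20.3 ± 2.97 in HSC, and Cd68, a lysosomal protein of macrophages, from 26.4 ± 7.09 to 11.3 ± 2.16 CPM. F13a1, the most abundant of the list, stood at 30.9 ± 37.4 CPM in HSC and 87.1 ± 31.2 in HPC and was not called (adjusted p = 0.0821), but passed without HSC library 2 (0.000772), with no count filter (0.0415), in limma voom (0.00476) and with the exon-exon share as a covariate (0.0269). No marker of the list was at 0 reads in all libraries. The part of such cells in the Csf1r result was not tested.

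Pdgfrb, a receptor for PDGF-BB and PDGF-DD that is best known from pericytes, stood at 1.47, 2.23, 2.29 and 1.29 TPM in HSC libraries 1 to 4. The HPC libraries stood at 25.7, 25.8, 23.7 and 18.8 TPM. The groups lay far apart and the libraries within each were close. Exon reads were 76 to 127 per library in HSC and 1166 to 1606 in HPC, and the means were 5.43 ± 1.20 and 73.7 ± 7.21 CPM (SD, n = 4). The log2 change was -3.76 ± 0.17 (SE), with an adjusted p of 8.09e-10 in edgeR's test.

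Markers of the stromal cells known for Pdgfrb are given beside it. The summed level of 8 pericyte and smooth muscle markers was 2.80 to 6.64 CPM in HSC and 0.724 to 1.74 CPM in HPC, and without Notch3 0.298 to 1.31 CPM in HSC and 0.497 to 1.32 in HPC. Rgs5 and Des, defining genes of pericytes and muscle, had 0 reads in all 8 libraries, each of which allows up to 3 reads. Among them only Notch3 had enough reads for a test, at 4.16 ± 1.35 CPM in HSC and 0.542 ± 0.459 in HPC (log2 change 2.91, adjusted p = 0.00099; without HPC library 2 the change was 3.64). It was too low to be tested with a filter of 50 reads, on uniquely placed or exon-exon reads, and in limma on TPM. The 13 mesenchymal stromal markers summed to 62.5 to 80.3 CPM in HSC and 14.8 to 22.5 in HPC, or without Bgn to 10.7 to 27.7 and 2.88 to 11.8 CPM, with Ebf3 at 0 reads in all libraries. Of the 4 tested, 2 were higher and 1 lower in HSC. The gene that was lower, Postn, named after its values were seen, had 0 reads in all HSC libraries and 47, 22, 59 and 12 in the HPC libraries. Bgn (biglycan), the most abundant, stood at 52.1 ± 4.88 CPM in HSC and 10.8 ± 1.03 in HPC. Cxcl12 was called as higher in HSC, at 10.0 ± 4.18 against 2.53 ± 2.53 CPM (log2 change 1.99, adjusted p = 0.0128), though the libraries overlap, and the call was lost without both libraries numbered 4 (0.0654) while the change was 2.89 without HPC library 1.

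Pdgfra had 1 exon read in HSC library 1, 2 in HPC library 1 and 0 in the other libraries. A count of 0 allows up to 3 reads, or 0.149 to 0.179 CPM by library. No difference was detectable at this depth, and the gene was too low to be tested.

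Csf1r and Pdgfrb are neighbours in the genome. On mm10, as the files give it, Pdgfrb spans chr18:61045150-61085067 and Csf1r chr18:61096809-61131139, both on the plus strand and 11.7 kb apart. Both were lower in HSC, by different folds. Pdgfra (chr5:75151400-75198211) and Kit (chr5:75574987-75656722) lie 376.8 kb apart on the plus strand, yet Kit led the family while Pdgfra was near 0. Kdr, the VEGF receptor 276.5 kb beyond Kit, was among the receptors called as higher in HSC.

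The order of the mean levels, compared per transcript length as TPM, was Kit, Flt3l, Flt3, Csf1r, Pdgfrb, Kitl and Pdgfra in HSC. There Csf1r and Pdgfrb overlap, as do Kitl and Pdgfra, and the other neighbours do not. Csf1r lay above Pdgfrb only in HSC library 2, and by the median Pdgfrb was the higher, at 1.85 against 1.57 TPM. In HPC the order was Kit, Flt3, Pdgfrb, Csf1r, Flt3l, Kitl and Pdgfra. Here Kit overlaps Flt3, Csf1r overlaps Flt3l and Kitl overlaps Pdgfra. Flt3l thus stood above Flt3 in HSC and below it in HPC.

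Flt3l, the growth factor that binds Flt3, stood at 25.3, 21.2, 23.5 and 24.9 TPM in HSC libraries 1 to 4. The HPC libraries stood at 9.08, 9.43, 10.8 and 11.05 TPM. All HSC libraries were above all HPC libraries. Exon reads were 363 to 476 per library in HSC and 161 to 209 in HPC, with means of 22.0 ± 2.96 and 9.73 ± 1.36 CPM (SD, n = 4). The log2 change was 1.17 ± 0.17 (SE), with an adjusted p of 6.85e-05 in edgeR's test. Per 100 TPM of Flt3 there were 264 to 465 TPM of Flt3l in HSC and 3.52 to 5.82 in HPC.

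Kitl, the ligand of Kit, had 0, 33, 5 and 0 exon reads in HSC libraries 1 to 4 and 0, 6, 0 and 8 in HPC libraries 1 to 4. HSC library 2 holds most of these reads, and both fractions have libraries at 0. The highest level was 0.622 TPM, against at least 210.1 TPM of Kit. Kitl was too low to be tested by the rule used for all genes, and its adjusted p was 0.495 when no gene was filtered out. On total gene reads it passed the filter, with a log2 change of 1.78 and an adjusted p of 0.125 in edgeR's test. HSC libraries 1 and 4, at 0 exon reads, held 23 and 16 intron reads.

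The other ligands of these receptors were read from a list of 6 genes. Of 5 tested, 4 were higher in HSC, 0 lower and 1 not called, where 19.6% of all tested genes were called higher. The median log2 change was 3.17, and that over all tested genes was 0.00. So Flt3l, Csf1, Pdgfb and Pdgfd were higher in HSC while Flt3, Csf1r and Pdgfrb, which bind them, were lower. Csf1, the macrophage growth factor, had 242, 347, 402 and 210 exon reads in HSC libraries 1 to 4 and 114, 126, 155 and 146 in HPC libraries. Its log2 change was 1.14 ± 0.22 (SE), with an adjusted p of 0.000912 in edgeR's test.

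Of the tested ligands, Pdgfb, Pdgfd and Pdgfc had the largest changes. Pdgfb, whose product binds Pdgfrb, had 224, 338, 438 and 302 exon reads in HSC and 37, 13, 43 and 40 in HPC. Its log2 change was 3.26 ± 0.33 (SE; adjusted p = 2.24e-06). Pdgfd, whose product also binds Pdgfrb, stood at 12.1 to 17.5 TPM in HSC, above the other PDGF genes, and at 0.921 to 2.59 TPM in HPC. Its log2 change was 3.17 ± 0.25 (SE; adjusted p = 1.93e-07). Pdgfc, whose product binds Pdgfra, had 226 to 274 exon reads per library in HSC and 20, 21, 0 and 12 in HPC. Its log2 change was 4.197 ± 0.50 (SE; adjusted p = 1.1e-05). For each of these 3 genes all HSC libraries lay above all HPC libraries. Of all tested genes 36.7% had fractions that did not overlap in CPM, in either direction.

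Pdgfa, by contrast, stood at 1.41 ± 0.67 CPM in HSC and 1.99 ± 0.276 in HPC, with overlapping libraries and an adjusted p of 0.424. Il34, the second ligand of Csf1r, had 3 to 8 exon reads per library in HSC and 0 to 3 in HPC and was not tested.

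**Figure D3:**
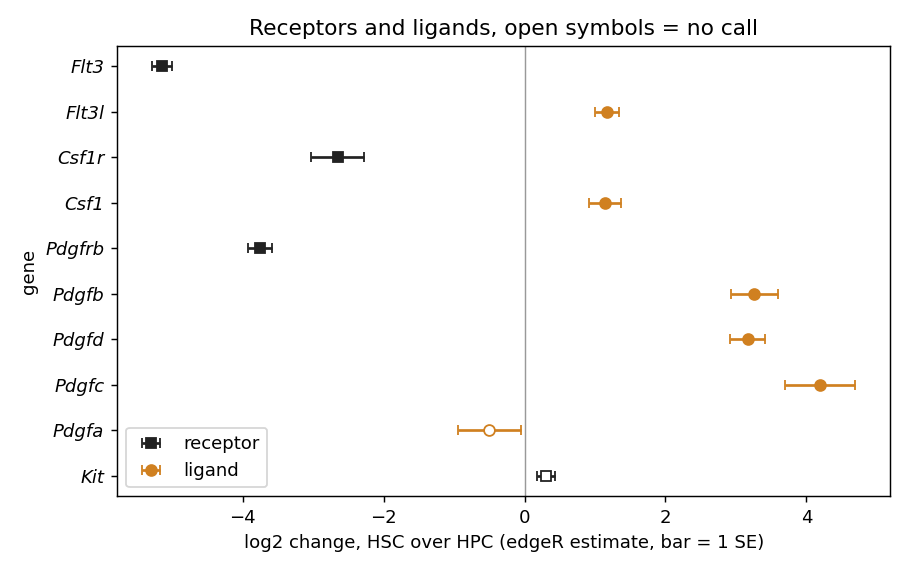
Log2 change, HSC over HPC, with a bar of 1 SE from edgeR, for the 4 receptors (squares) and 6 ligands (circles) with enough reads; open symbols were not called. Flt3, Csf1r and Pdgfrb lie left of 0 while Flt3l, Csf1, Pdgfb, Pdgfd and Pdgfc lie right of it.

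Reads outside exons gave a further readout of the receptors. Intron reads come from unspliced RNA or from DNA, and exon-exon reads cross a splice junction. The 3 receptors with at least 50 exon reads in every library, Kit, Flt3 and Pdgfrb, were compared. Kit had 0.418 ± 0.0329 intron reads per exon read in HSC and 0.445 ± 0.0531 in HPC (SD, n = 4; exact permutation p = 0.429, adjusted over the 3 genes 0.429). Flt3 had 0.844, 0.769, 0.560 and 0.478 in HSC libraries 1 to 4 and 0.268, 0.278, 0.348 and 0.322 in HPC libraries 1 to 4. Pdgfrb had 0.173 to 0.250 in HSC and 0.0582 to 0.115 in HPC.

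For Flt3 and Pdgfrb all HSC libraries were thus above all HPC libraries (exact permutation p = 0.0286 for each, adjusted over the 3 genes 0.0429). Without any 1 of the HPC libraries the unadjusted exact p for Flt3 was 0.0571, with a difference of 0.347 to 0.373 beside 0.359 with all libraries and the groups still apart. Intron reads of Flt3 were 16.6-fold higher in HPC than in HSC as a ratio of mean reads, against 35.5-fold for its exon reads. For Pdgfrb these folds were 5.30 and 13.6. Over 10211 genes with as many exon reads, 3.39% had all HSC libraries above all HPC libraries in this measure. Among the 27 of them called lower in HSC with a log2 change of -3 or below, 7 did, or 25.9%. Flt3 and Pdgfrb are themselves counted among these 7. Over whole libraries the measure was 0.201 to 0.263 in HSC and 0.211 to 0.280 in HPC.

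Exon-exon reads per exon read did not separate the fractions for these genes. Flt3 stood at 0.840 ± 0.0459 in HSC and 0.857 ± 0.0244 in HPC (SD, n = 4; exact permutation p = 0.657). Kit stood at 0.449 ± 0.0413 and 0.458 ± 0.0365 (exact p = 0.6), and Pdgfrb at 0.352 ± 0.1002 and 0.366 ± 0.0363 (exact p = 0.8286). All 3 adjusted values were 0.8286.

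**Figure D4:**
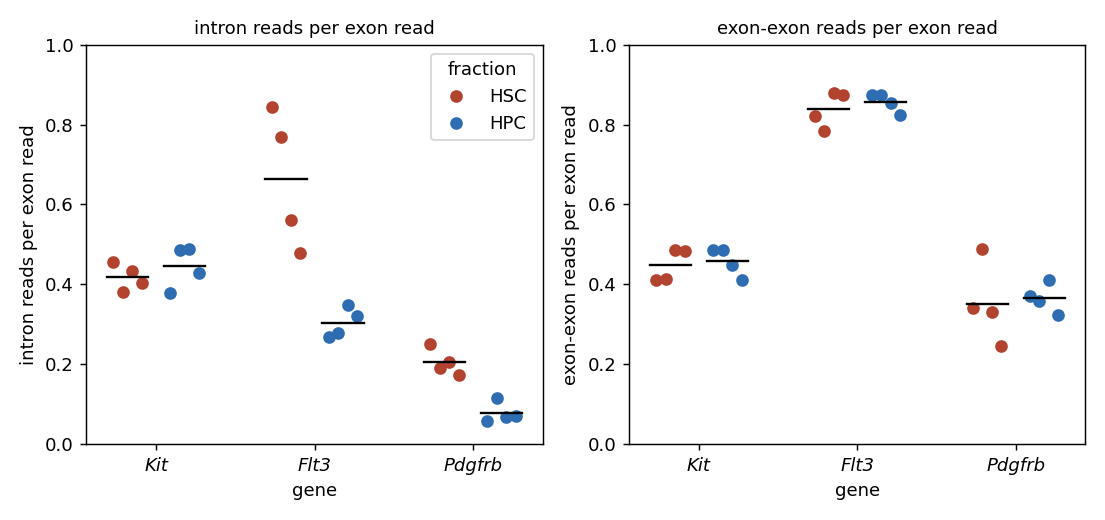
Intron reads (left) and exon-exon reads (right) per exon read of Kit, Flt3 and Pdgfrb, 1 point per library and a line at the mean of 4. The HSC libraries lie above the HPC libraries in the left panel for Flt3 and Pdgfrb, and the fractions overlap elsewhere.

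Among 56 receptor tyrosine kinases, the 5 of class III included, Kit ranked first by TPM in all 8 libraries. It took 53.6% to 61.0% of their summed TPM in HSC and 39.2% to 42.2% in HPC. Flt3 ranked second in every HPC library and between 9 and 12 in HSC. Pdgfrb and Csf1r ranked between 15 and 22 in HSC. In HPC Csf1r ranked 7 in every library, and Pdgfrb ranked 3 in library 1 and 4 in the others. Of the 51 other receptor tyrosine kinases matched in the files, 24 were tested, of which 11 were higher in HSC, 2 lower and 11 not called, with a median log2 change of 0.56. Without HSC library 3 or 4 or HPC library 1 or 2, 1 was lower.

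The angiopoietin receptor Tek stood at 62.6 ± 8.31 CPM in HSC and 15.7 ± 1.08 in HPC (log2 change 1.999, adjusted p = 3.19e-08), and its relative Tie1 at 170 ± 21.7 and 52.1 ± 1.97 CPM (1.71, adjusted p = 1.84e-08). Igf1r, the receptor for insulin-like growth factor, was also higher in HSC, at 183 ± 22.0 against 121 ± 12.0 CPM (0.60). The ephrin receptor Epha7 was lower in HSC, at 1.87 ± 1.37 against 16.9 ± 2.90 CPM (-3.16; -3.78 without HSC library 3). Ptk7, a receptor without kinase activity, stood at 39.7 ± 3.93 and 44.1 ± 12.6 CPM and was not called.

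Of 32 adaptors and proximal effectors tested downstream of the receptors, 4 were higher in HSC, 8 lower and 20 not called, or 37.5% called, with a median log2 change of -0.05. With upper quartile scaling, or without HSC library 4, 7 were higher. Pik3r1, the regulatory subunit through which PI3K docks on activated receptors, rose from 107 ± 16.7 CPM in HPC to 205 ± 42.0 in HSC. The Src family kinase Yes1 rose from 7.01 ± 2.09 to 16.0 ± 0.777 CPM. The cytoplasmic kinase Fes was lower in HSC, at 29.1 ± 5.15 against 69.3 ± 3.75 CPM, as was the exchange factor Vav1, at 143 ± 12.4 against 208 ± 14.7 CPM.

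Of 19 kinases and exchange factors of the RAS-ERK and AKT pathways, 2 were higher, 2 lower and 15 not called, or 21.1% called, with a median log2 change of -0.02. With upper quartile scaling 6 were higher. Without HSC library 1, 2 or 4 or HPC library 2 only 1 was higher, and without HSC library 1, 3 or 4 or HPC library 2, 3 or 4 only 1 was lower. Map2k1, which activates ERK, stood at 83.8 ± 4.85 CPM in HSC and 66.8 ± 9.45 in HPC (log2 change 0.33, adjusted p = 0.0367), a call lost when any HSC library or HPC library 2 or 4 was left out (0.0528 to 0.116). Rps6ka1, a kinase that ERK activates, was lower in HSC, at 148 ± 12.5 against 195 ± 19.2 CPM.

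Genes that end receptor signalling went both ways. Of 24 such brakes tested, 6 were higher in HSC, 9 lower and 9 not called, or 62.5% called, with a median log2 change of -0.15, and with upper quartile scaling 5 were lower. Socs2, a suppressor of cytokine signalling, had 1881, 1530, 1382 and 1931 exon reads in HSC libraries 1 to 4 and 184, 208, 131 and 185 in HPC libraries. Its log2 change was 3.27 ± 0.18 (SE), with an adjusted p of 4.81e-09 in edgeR's test. Inppl1, a lipid phosphatase, stood at 16.9 ± 4.46 CPM in HSC and 4.74 ± 0.693 in HPC. Dok2 (74.5 ± 1.91 against 143 ± 13.2 CPM) and the adaptor Sh2b2 (13.7 ± 2.34 against 27.2 ± 2.19 CPM) were lower in HSC.

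Genes that ERK signalling induces and that in part feed back on it also went both ways. Of 12 tested, 5 were higher in HSC, 3 lower and 4 not called, or 66.7% called, with a median log2 change of 0.69. The phosphatase Dusp4 rose from 2.08 ± 0.876 CPM in HPC to 9.42 ± 2.73 in HSC, and the transcription factor Egr1 from 47.4 ± 29.4 to 165 ± 52.5 CPM. The phosphatases Dusp6 (51.4 ± 6.04 in HSC against 101 ± 6.998 CPM in HPC) and Dusp5 (2.75 ± 1.10 against 9.41 ± 1.12 CPM) were lower in HSC. Without HSC library 2, 3 genes of this list were higher.

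Proteases that can cut receptors or ligands from the surface numbered 8, with 3 higher in HSC, 3 lower and 2 not called. Mmp14, a membrane-bound metalloprotease, stood at 34.6 ± 1.54 CPM in HSC and 3.76 ± 1.45 in HPC. The soluble metalloprotease Mmp2 stood at 9.49 ± 1.85 and 23.2 ± 2.69 CPM. Psen2, a subunit of gamma-secretase, was higher in HSC, at 50.5 ± 2.43 against 23.7 ± 3.52 CPM.

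Among 14 transcription factors known to act on these genes or beside them, 6 were higher in HSC, 4 lower and 4 not called, with a median log2 change of 0.14. The GATA factors of the erythroid, megakaryocyte and stem cell programmes were higher, Gata1 at 113 ± 19.6 against 31.8 ± 5.01 CPM and Gata2 at 380.4 ± 14.0 against 178 ± 16.0 CPM. The myeloid factor Cebpa was lower in HSC, at 1.82 ± 1.45 against 40.0 ± 5.48 CPM, with a log2 change of -4.44 that became -5.17 without HSC library 2. Spi1, the ETS factor PU.1, was lower as well, at 73.9 ± 8.51 against 166 ± 14.0 CPM.

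**Figure D5:**
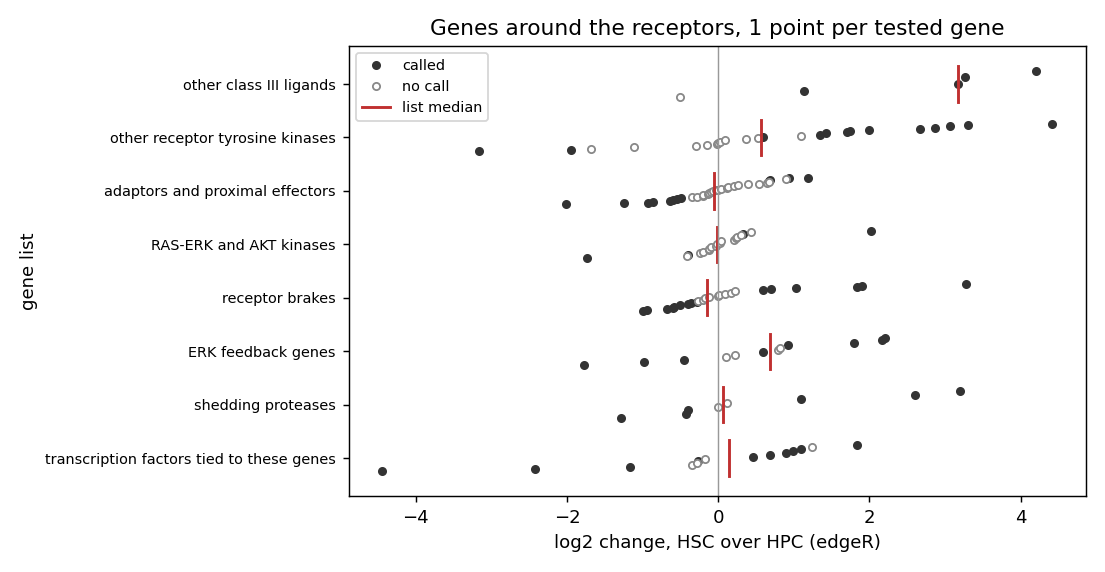
Log2 change, HSC over HPC, of each tested gene in 8 lists around the receptors; filled points were called, open points were not, and the red line is the list's median. The other ligands lie mostly right of 0 (median 3.17), while adaptors and the RAS-ERK and AKT kinases centre near 0 (medians -0.05 and -0.02).

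Genes whose pattern over the 8 libraries was most like each member's were taken from 8047 genes by the smallest root mean square difference of centred log2 CPM. For Kit these were Galnt7, Ip6k1 and Mtmr3, at 0.07 to 0.08 log2 units. Nearest to Flt3 were Wfdc17 and Tespa1, at 0.29 and 0.34. Csf1r was followed most closely by Itgal, Irf8 and Cd180, at 0.28 to 0.43, and Pdgfrb by Ncf1, Sh2d5 and Haao, at 0.18 to 0.21. Flt3l had Gimap5, Minpp1 and Cd63, at 0.11 to 0.12. These distances rest mostly on the gap between the fractions.

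Markers of other cell types that carry these receptors are given as well. Mast cells are known for Kit, and their 8 markers summed to 3.14 to 8.15 CPM in HSC and 67.0 to 84.1 in HPC. All 6 mast cell markers tested were lower in HSC, with Cpa3 at 2.58 ± 0.927 against 49.3 ± 4.83 CPM and Hdc at 0.835 ± 0.860 against 9.18 ± 1.94 CPM (log2 change -3.43; -4.42 without HSC library 3). Kit itself had the higher mean in HSC and was not called. Dendritic cells are known for Flt3, which is itself on the list of their 10 markers. These summed to 104 to 127 CPM in HSC and 114 to 138 in HPC with Flt3 left out of the sum, and Bst2, the most abundant, was not called. Of 9 tested, Flt3 included, 2 were higher and 3 lower, with Ccr9 at 5.79 ± 1.32 CPM in HSC against 21.9 ± 4.46 in HPC and Zbtb46 at 27.7 ± 6.17 against 2.89 ± 1.23 CPM. Only 1 dendritic cell marker was called higher with a filter of 50 reads, on uniquely placed or exon-exon reads, and in limma on TPM. Of 9 endothelial markers tested, 5 were higher in HSC (3 without HSC library 2 or HPC library 1 or 2) and 1 lower, among them Vwf at 77.7 ± 18.5 against 5.54 ± 0.782 CPM, Sox18 at 10.5 ± 1.86 against 0.784 ± 0.460 CPM and Pecam1 at 46.8 ± 7.76 against 119 ± 7.15 CPM. With the receptor kinases Kdr, Flt1 and Flt4 left out, the endothelial markers summed to 139 to 197 CPM in HSC and 148 to 158 in HPC. These ranges overlap, with HSC library 4 the lowest of all. No marker of mast, dendritic or endothelial cells was at 0 reads in all libraries. The part of such cells in the receptor results was not tested.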

How the data were processed

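RNA-seq of 4 HSC and 4 HPC libraries, grouped by their labels, was analysed. Extraction used ISOGEN, cDNA came from a SMARTer Pico kit with 18 PCR cycles, and libraries from Nextera XT, per the labels' protocols. The submitters' processing notes name build mm10. Which aligner and counter served, and whether strand was used, is not given in the sources used here.

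Per the file headers, the deposited files give a count of exon, intron, exon-exon and gene reads for each row. The deposited TPM and the deposited RPKM are the authors' values per transcript length. TPM was used for levels and RPKM as an alternative. All were summed per gene ID, since 1931 of 46113 IDs stood on several rows.

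Exon counts were tested with edgeR 4.0.16 (R 4.3.3) after filterByExpr and TMM scaling, by the quasi-likelihood test with Benjamini-Hochberg adjustment over 12751 genes. Changes are HSC over HPC, and the biological coefficient of variation was 18.3%. Ratios and shares of reads were compared by exact permutation tests over libraries, two-sided. The fitting and permutation steps were tested on simulated data.

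Members and lists were chosen with earlier results of these data known. Named genes were, per list, up to 2 called genes in each direction with the smallest adjusted p and a mean of at least 5 CPM, the 3 most abundant other receptor kinases of each fraction, the most abundant marker of each cell type with markers at 0, and the 3 genes most like each member among those of at least 20 CPM. A few genes that the rule names are left out of the text, and list genes that matched no row are not analysed here. Alternatives were RLE and upper quartile scaling, other count filters, the replicate number as a block, DESeq2 1.42.0, limma 3.58.1 (voom, or log2 of TPM plus 0.5 or 0.1), other read classes, main-assembly rows and leaving out each library. Leaving out both libraries numbered 4 and the exon-exon share as a covariate were added after seeing the data. Libraries of a fraction differed by more than sampling noise, the chi-square per gene averaging 11.5 to 38.1. Promoter sequences are RefSeq's. Floors of 3 reads cover counting error only.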

Additional observations from a re-analysis of the deposited data

Results flagged for a closer look

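Kitl in HSC library 2 was at 0.622 TPM, from 33 exon reads, and stood apart from the other HSC libraries, which had 0 to 5 reads. It was found among 30 groups of 4 values, where chance gives about 1 in 20 groups. Pdgfra in HSC library 1 was at 0.0149 TPM, from 1 read, and in HPC library 1 at 0.0265 TPM, from 2 reads, against 0 in the other libraries. With 3 libraries at 0 any value above 0 counts as apart, and a count of 0 allows up to 3 reads, so nothing is read from these Pdgfra values.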

How the results depend on the processing

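Flt3, Csf1r, Pdgfrb and Flt3l kept their direction and their call in every alternative run. Kit kept its direction in all, with a log2 change of 0.19 to 0.39 when 1 library was left out, but was called with upper quartile scaling (0.38, adjusted p = 0.0281), with the replicate block (0.29, adjusted p = 0.0221) and without HSC library 4 (0.39, adjusted p = 0.0239). Members called higher in HSC then numbered 2, Kit and Flt3l. The replicate block changed no other call of a member, but F13a1, a monocyte marker, was called with it (adjusted p = 0.0233). Deviations of same-numbered libraries correlated at -0.01, -0.12, 0.09 and 0.15 for numbers 1 to 4. Libraries numbered 3 and 4 correlated best with their own number, and those numbered 1 and 2 did not. Whether libraries of equal number share an origin was not tested. Upper quartile scaling moved the median log2 change of all genes by 0.08 and the share of higher calls from 52.7% to 61.7%.

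Ptk7, not called, changed sign without HPC library 1, its log2 change spanning -0.27 to 0.0373 over the left-out libraries. The difference in exon-exon reads per exon read, never past the threshold, also changed sign when 1 library was left out. It spanned -0.0256 to 0.0023 for Kit (positive without HSC library 1 or 2), -0.0296 to 0.0025 for Flt3 (without HSC library 2) and -0.0591 to 0.0213 for Pdgfrb (without HSC library 4 or HPC library 3). The cause was not tested. Ptprc was called as lower in HSC, at 176 ± 19.9 against 232 ± 25.4 CPM (adjusted p = 0.00812 in edgeR's test). Its call and that of Rps6ka1 were lost in limma on TPM, with an adjusted p of 0.0789 to 0.150. Depth limits Pdgfra and Kitl, whose levels rest on few or no reads.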
